A study of Mus musculus with 8 samples.

Results

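The genes described here are 10 integrin subunits of the mouse, 6 alpha chains (Itgal, Itga4, Itgae, Itgav, Itga6 and Itga2) and 4 beta chains (Itgb2, Itgb1, Itgb7 and Itgb3). They were taken by gene symbol from the deposited count tables, which list 23183 genes and hold 27 integrin subunits in all. All 10 had 48 counts or more in every library, passed the filter on low counts and were tested among 12239 genes. The libraries are bulk mRNA-seq of group 2 innate lymphoid cells (ILC2s), lymphocytes without antigen receptors that make type 2 cytokines in the lung. The cells came from lungs of C57BL/6 mice, wild-type C57BL/6 J by the methods, which carried no engineered allele, were of both sexes, were 6 to 10 weeks old and had received recombinant IL-33. They were enriched with a pan-ILC kit and CD45 beads and were cultured with IL-2, IL-7 and IL-33, which both groups therefore shared. One group of 4 libraries came from cells exposed to 5 µM Yoda1, a chemical agonist of the mechanosensitive channel Piezo1, and the other 4 came from cells given 0.1% DMSO, the vehicle, with 3 h as the treatment time. The comparison asks how activation of the channel changed the mRNA of the adhesion receptors.

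Integrins are adhesion receptors built from 1 alpha and 1 beta chain, and the pairing decides what the receptor binds. On lymphocytes, Itgal with Itgb2 forms LFA-1, the receptor for ICAM molecules. Itga4 pairs with Itgb1 as VLA-4, which binds VCAM-1 and fibronectin, or with Itgb7 as the receptor for the gut addressin MAdCAM-1. Itgae pairs with Itgb7 and binds E-cadherin on epithelium. Itgav pairs with Itgb3, Itgb1 and other beta chains and binds vitronectin, osteopontin, fibronectin and latent TGF-β, while Itga6 and Itga2 with Itgb1 bind laminin and collagen. Resting integrins are bent and weakly adhesive. Signals inside the cell, which pass through the small GTPase Rap1 to talin and kindlin at the beta tail, switch them on.

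The total counts ran from 12438009 to 19534653 per library, and expression is given as CPM, the counts of a gene set against the size of its library, after scaling by TMM, a factor that removes differences in composition between libraries. Yoda1 was compared with DMSO by the quasi-likelihood test of edgeR, and a gene was called at a Benjamini-Hochberg adjusted p under 0.05 over all 12239 genes. By that rule 10.9% of the genes tested were called, 6.04% higher (739 genes) and 4.84% lower (592 genes) in Yoda1. With upper-quartile scaling the split was 505 higher and 958 lower. Piezo1 mRNA was 310.5 ± 13.1 CPM in DMSO and 322.5 ± 17.6 CPM in Yoda1 (SD, n = 4), and was not called (edgeR adjusted p = 0.407). Of the markers of ILC2s, Gata3 and Rora averaged 565 and 590 CPM in DMSO, whereas Ptgdr2 had 0 to 2 counts per library. In all, 7 of 14 tested ILC2 markers were called, Il1rl1, Thy1, Areg, Il5, Il13 and Arg1 higher and Icos lower, and the 15 listed summed to 17904 to 18452 CPM in DMSO and 20160 to 20532 CPM in Yoda1. Markers of T cells, which use most of the same integrins, had a low sum beside those of ILC2s. The 9 listed summed to between 131 and 141 CPM in DMSO and between 138 and 148 CPM in Yoda1, and none was called. Cd3g (46.8 CPM) and Lat (43.7 CPM) were the highest in DMSO. The T cell receptor constant genes Trac, Trbc1 and Trbc2 are not listed. The 8 NK cell markers summed to 792 to 874 CPM in DMSO and 842 to 910 CPM in Yoda1. Eomes and Prf1 were called higher. Most of the DMSO sum was Prf1 (384.6 CPM) and Gzma (343.8 CPM). Eomes (37.8 CPM) and Klrd1 (25.1 CPM) followed, and Klra8, Klrb1c, Klre1 and Ncr1 were at 8.58, 6.07, 4.52 and 4.42 CPM. Macrophage and dendritic cell markers summed to 991 to 1045 CPM in DMSO, mostly Cd74 (859.2 CPM), and to 987 to 1060 CPM in Yoda1. Mast cell and basophil markers summed to 870 to 1044 CPM in DMSO, mostly Gzmb (938.8 CPM), and to 1054 to 1149 CPM in Yoda1. Gzmb was called higher. Mcpt8, Cpa3 and Cma1 were at 2.01, 2.25 and 1.74 CPM in DMSO and were not called. Fcer1a, Ms4a2, Mcpt4 and Tpsb2 were under the filter on low counts. The part of these lists in the results was not tested. In bulk RNA, fewer cells of a type and less RNA per cell cannot be told apart.

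Itgb7 was the most abundant integrin mRNA of these ILC2s, and Itga2 was the scarcest of the 10. Levels were compared between genes after division by the length of all exons of a gene in kilobases (CPM per kb). In DMSO the levels were 233.1 ± 7.65 CPM per kb for Itgb7, 115.2 ± 0.390 for Itgb2 and 86.1 ± 2.86 for Itgal (SD, n = 4). Each of these 3 leukocyte chains stood above 96.1% or more of all genes tested on this scale. Itgb1, the partner of the widest range of alpha chains, followed at 41.2 ± 0.523 CPM per kb. Itgb3 at 19.7 ± 1.59, Itgav at 16.2 ± 1.26 and Itga4 at 10.6 ± 0.754 CPM per kb formed the middle of the order. Itgae had 4.51 ± 0.184, Itga6 had 2.81 ± 0.171 and Itga2 had 0.704 ± 0.176 CPM per kb. No 2 neighbours in this order had overlapping ranges over the 4 DMSO libraries, and the order was identical in Yoda1. The order and the values depended on the length used. With the longest transcript in place of all exons, Itgav (24.6) came above Itgb3 (20.1) and Itga6 (5.89) came above Itgae (5.37 CPM per kb), so neither pair has a fixed order. With the median length of the protein-coding transcripts, which annotated fragments shorten, Itgav was 252.7 CPM per kb and came above Itgal (124.8) and Itgb1 (74.3), while Itgb7 was 1500 and Itgb2 was 558 CPM per kb. The first and the last place, Itgb7 and Itga2, were the same under all 3 lengths.

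**Figure D1:**
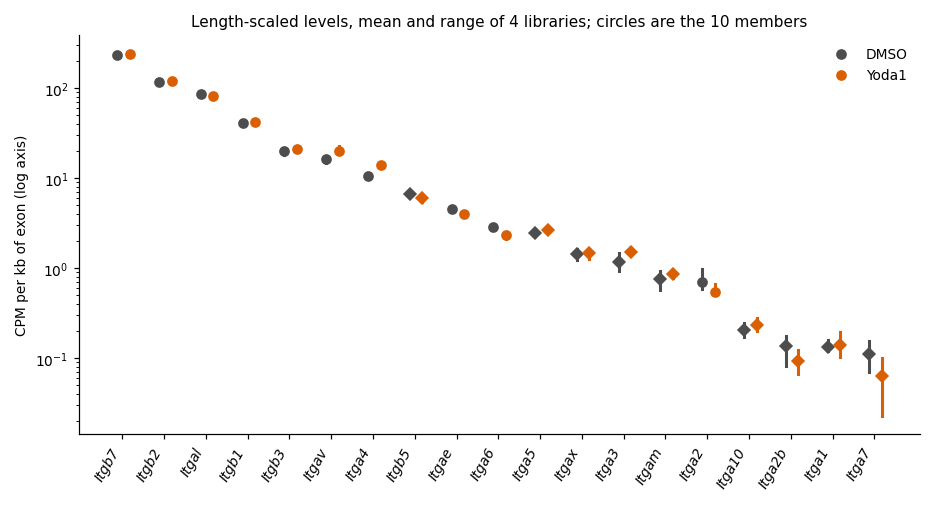
Level per length of the 19 tested integrin subunits, on a logarithmic axis in CPM per kb of exon, with DMSO in grey and Yoda1 in orange. Circles are the 10 genes described here, diamonds are the other 9, and lines span the lowest to the highest of 4 libraries; the levels fall from 233.1 for Itgb7 to 0.704 for Itga2 among the circles in DMSO.

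Yoda1 changed 3 of the 10 subunits, all alpha chains, beside 10.9% called over all genes tested. Itga4 and Itgav rose and Itga6 fell, and none of the 4 beta chains was called. The difference between alpha and beta chains was not tested. A further 2 genes, Itgae and Itgb2, had no overlap between the groups without being called. In all, 5 of 10 showed no overlap between the 4 Yoda1 and the 4 DMSO libraries, compared with 15.5% of all genes tested. The subunits were chosen with earlier results of these data known, so these counts cannot test whether integrins differ from other genes. The median log2 fold change of the 10 was 0.02, and that of all genes tested was -0.01. Nothing in the labels or methods says that the 4 libraries were separate mice or cultures, so p-values measure only the spread between these libraries.

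Itga4, the alpha chain of VLA-4, had the largest rise of the 10. Its 4 DMSO libraries held 140.6, 138.1, 154.4 and 159.8 CPM, and its 4 Yoda1 libraries held 196.25, 197.4, 189.9 and 194.0 CPM. Every Yoda1 library was above every DMSO library, and the Yoda1 values lay closer together. The means were 148.2 ± 10.5 and 194.4 ± 3.31 CPM (SD, n = 4), from 2162 to 3771 counts per library. The log2 fold change was 0.39 (SE 0.04, 95% interval 0.31 to 0.48), or 31.3% more mRNA, with an edgeR adjusted p of 7.20e-08. The gene (ENSMUSG00000027009.18) is protein-coding and lies on the plus strand at chr2:79255426-79333123 in GRCm38, with 28 exons in its principal transcript. Its exons share 1124 bases with Cerkl on the other strand, a gene of 16 to 36 counts per library that was not called (log2 fold change 0.29, adjusted p = 0.547).

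Itgav, the alpha chain of the vitronectin and osteopontin receptors, also rose. The DMSO libraries held 155.5, 173.2, 187.3 and 179.3 CPM, and the Yoda1 libraries held 209.5, 243.9, 206.3 and 202.6 CPM. The groups did not overlap, and replicate 2 of Yoda1 stood above the other 3. The means were 173.9 ± 13.5 and 215.6 ± 19.1 CPM (SD, n = 4), a log2 fold change of 0.31 (SE 0.07, 95% interval 0.16 to 0.46) with an edgeR adjusted p of 0.0153. Without DMSO replicate 2 the adjusted p was 0.0503 at the same size of change (0.31). The call held in the other 15 of 16 alternatives. Without Yoda1 replicate 2 the log2 fold change was 0.25. Itgav (ENSMUSG00000027087.11) is protein-coding, has 30 exons in its principal transcript and lies on the plus strand at chr2:83724397-83806916 in GRCm38. A predicted gene on the opposite strand, Gm13684, shares 634 of its exon bases and is not listed in the count tables.

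The upstream sequences of these 2 genes, which rose together, are shown because promoters are where a shared motif could be read. Of the 10 genes, 5 were found in the promoter table of RefSeq (GRCm38.p6), and Itga6 is not among them. Each line gives the 250 bases before the annotated start, 5′ to 3′ on the strand of the gene, at chr2:79255176-79255425 for Itga4 and chr2:83724147-83724396 for Itgav. Capitals mark a GC box (GGGCGG) in Itga4 and the ETS letters GGAAGT, in both orientations, in Itgav.
Itga4: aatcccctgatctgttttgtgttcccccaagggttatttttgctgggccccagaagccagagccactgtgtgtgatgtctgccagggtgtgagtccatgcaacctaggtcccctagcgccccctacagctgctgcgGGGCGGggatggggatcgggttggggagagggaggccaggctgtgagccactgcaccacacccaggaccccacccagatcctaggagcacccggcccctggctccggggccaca
Itgav: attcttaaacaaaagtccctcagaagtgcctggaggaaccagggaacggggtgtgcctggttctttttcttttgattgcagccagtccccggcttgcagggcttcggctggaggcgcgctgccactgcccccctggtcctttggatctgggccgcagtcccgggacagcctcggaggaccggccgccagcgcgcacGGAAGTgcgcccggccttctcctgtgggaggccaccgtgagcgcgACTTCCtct
Both windows were richer in G and C, at 64.0% in Itga4 and 64.4% in Itgav, than the median of 52.4% over 32851 promoter windows. So were those of the 3 uncalled genes in the table, Itgb1 (68.0%), Itga2 (60.8%) and Itgb7 (56.0%). Itgav held 18 CpG dinucleotides, whereas Itga4 held 6, the median of all windows. On both strands neither window held the AP-1 letters TGANTCA (6.75% of all windows), the CRE letters TGACGTCA (1.55%), the NFAT letters GGAAAA (20.4%), the EGR letters GCGTGGGCG (0.536%) or the NR4A letters AAAGGTCA (1.34%). The GC box began 114 bases before the start of Itga4 (-114), was also found in the uncalled Itgb1 (-151) and is present in 32.7% of all windows. The ETS letters began at -54 and -9 in Itgav and are present in 19.7% of windows. These last motifs were searched for after the first 5 had given no match. None of the 7 motifs was found in both sequences.

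Itga6, a laminin receptor chain, fell. Its DMSO libraries held 27.0, 26.4, 23.7 and 24.5 CPM, and its Yoda1 libraries held 22.6, 21.8, 19.5 and 18.8 CPM. All 4 Yoda1 values lay below the lowest DMSO value. The means were 25.4 ± 1.55 and 20.7 ± 1.82 CPM (SD, n = 4), with 260 to 482 counts per library. The log2 fold change was -0.31 (SE 0.07, 95% interval -0.45 to -0.16) with an edgeR adjusted p of 0.00496, which corresponds to 0.809 times the DMSO level. Itga6 (ENSMUSG00000027111.15) is protein-coding and lies on the plus strand at chr2:71745616-71858416 in GRCm38, with 26 exons in its principal transcript. Platelets carry this chain, and 1 platelet marker, the glycoprotein gene Gp1ba, fell as well (log2 fold change -0.71, adjusted p = 0.00792). The 7 platelet markers summed to 3.03 to 4.48 CPM in DMSO and 2.02 to 2.56 CPM in Yoda1, nearly all of it Gp1ba, and Gp6 and Treml1 were at 0 in all libraries. The other 4, Pf4, Ppbp, Gp9 and Gp1bb, had 0 to 4 counts per library. The 12 markers of epithelial, endothelial and fibroblast cells summed to 215 to 230 CPM in DMSO and 220 to 224 CPM in Yoda1. Only 3 of them were tested and 0 were called. The part of RNA from platelets or from these other cells in the fall of Itga6 was not tested.

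**Figure D2:**
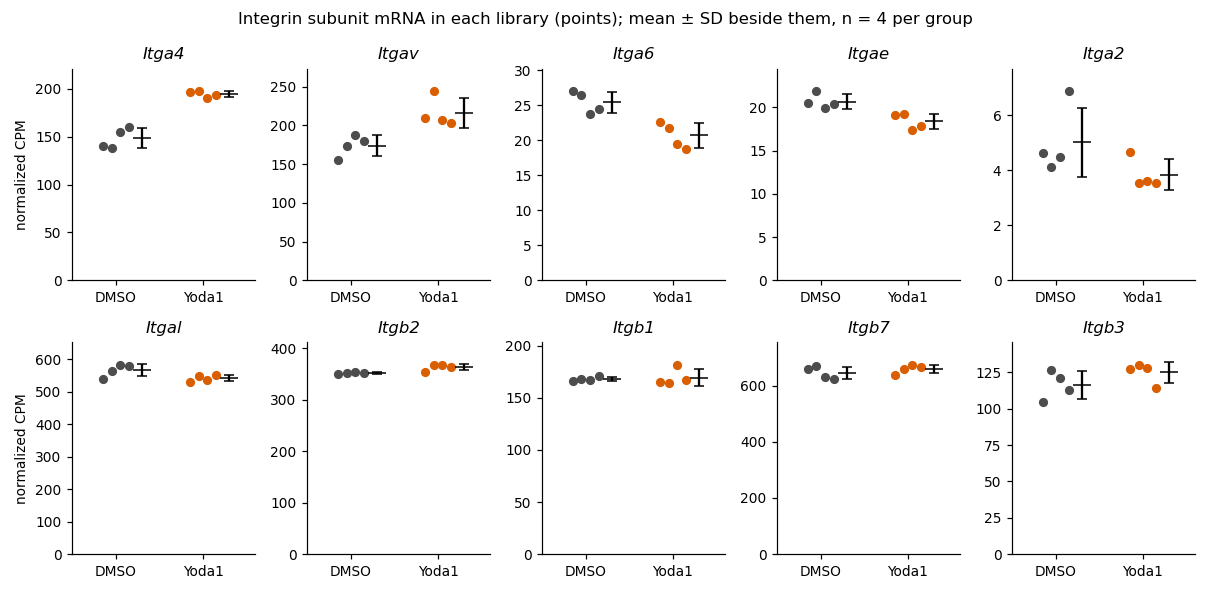
Normalized CPM of each of the 10 subunits in every library, with DMSO in grey, Yoda1 in orange and the mean ± SD (n = 4) beside the points; each panel has its own axis that starts at 0. Itga4 and Itgav are higher in all 4 Yoda1 libraries and Itga6 and Itgae lower, Itgb2 is slightly higher without overlap, and Itga2, Itgal, Itgb1, Itgb7 and Itgb3 overlap.

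Itgae, known as CD103, was lower in Yoda1 by a smaller step. It had 20.5, 21.9, 19.9 and 20.4 CPM in DMSO and 19.1, 19.2, 17.4 and 17.8 CPM in Yoda1. The groups did not overlap, but the log2 fold change of -0.17 (SE 0.07, 95% interval -0.32 to -0.03) had an edgeR adjusted p of 0.115. Itga2, the collagen receptor chain, was measured on 48 to 93 counts per library. It had 4.63, 4.11, 4.48 and 6.87 CPM in DMSO and 4.68, 3.53, 3.60 and 3.55 CPM in Yoda1, so the groups overlapped. Its log2 fold change of -0.38 was as large as that of Itga4 in size, but its SE was 0.16 and the adjusted p was 0.129. Without DMSO replicate 4, the highest library, the fold change of Itga2 was -0.21. Itgal, the LFA-1 alpha chain, had 540.1 to 581.3 CPM in DMSO and 530.6 to 549.9 CPM in Yoda1. Its log2 fold change was -0.07 with a 95% interval of -0.14 to 0.01 and an adjusted p of 0.244.

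The beta chains had standard errors of 0.03 to 0.05 on the log2 scale, and their intervals bound how far they could have moved. Itgb2 had 350.1, 351.9, 353.0 and 351.8 CPM in DMSO and 353.8, 366.9, 366.2 and 363.3 CPM in Yoda1. The groups did not overlap, yet the log2 fold change was 0.04 (95% interval -0.02 to 0.11) and was not called (adjusted p = 0.442). Itgb2l, a gene related to Itgb2, had 0 to 3 counts per library, and sharing of reads with Itgb2 was not measured. Itgb1 had 165.9 to 171.0 CPM in DMSO and 164.7 to 181.4 CPM in Yoda1, a log2 fold change of 0.01 (95% interval -0.07 to 0.09, adjusted p = 0.905). The sign of this small value turned with the scaling and with Yoda1 replicate 3. Itgb7 had 625.1 to 668.9 CPM in DMSO and 637.4 to 673.1 CPM in Yoda1, with a log2 fold change of 0.03 (95% interval -0.04 to 0.10, adjusted p = 0.648) whose sign also turned with upper-quartile scaling. Itgb3, the partner of Itgav, had 104.8 to 126.3 CPM in DMSO and 114.4 to 129.9 CPM in Yoda1, a log2 fold change of 0.10 (95% interval -0.01 to 0.21, adjusted p = 0.238). A change of Itgb1, Itgb2, Itgb7 or Itgb3 as large as that of Itga4 lies outside the 95% interval of each.

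Since an integrin is a pair, the ratio of alpha to beta mRNA was taken within each library for 8 known pairs. This ratio does not depend on library scaling. It differed between the groups in 7 of the 8 pairs (two-sided exact permutation test, p = 0.0286 each, the smallest that 4 libraries against 4 allow, and 0.0327 after Benjamini-Hochberg adjustment over 8 pairs). The pairs share subunits, so these are not 7 separate observations. At this smallest p the test says only that the ratios of the groups did not overlap. The share of other gene pairs without overlap was not taken, and 15.5% of single genes tested had none. Itga4, Itgav, Itga6 and Itgae had no overlap by themselves, so their ratios to the uncalled beta chains mostly repeat those shifts. Itgb2, the partner of Itgal, had none either, so each of the 7 pairs holds a subunit that was already without overlap. Itga4 gained on Itgb1 by 0.38 and on Itgb7 by 0.36 on the log2 scale. Itga4 was below Itgb1 in all 4 DMSO libraries by CPM, with log2 ratios from -0.29 to -0.10, and above it in all 4 Yoda1 libraries, with ratios from 0.07 to 0.26. Per length, Itga4 mRNA was 0.257 times that of Itgb1 in DMSO and 0.335 times in Yoda1. Against the abundant Itgb7 it was 0.0454 times in DMSO and 0.0584 times in Yoda1. These sizes hold for the length of all exons and differ with another transcript length, whereas the change between groups does not.

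Itgav gained on Itgb1 by 0.30 and on Itgb3 by 0.20 on the log2 scale. Per length its ratio to Itgb3 was 0.821 in DMSO and 0.946 in Yoda1, with ranges of 0.753 to 0.872 and 0.886 to 1.03 over libraries. These values are per kb of all exons: with the longest transcript Itgav stood above Itgb3 in DMSO, as given with the levels, so only the change and not the side of 1 is independent of length. The LFA-1 ratio of Itgal to Itgb2 fell by 0.11 on the log2 scale, from 0.68 ± 0.04 to 0.58 ± 0.02 (SD, n = 4). Neither gene was called by itself (log2 fold changes -0.07 for Itgal and 0.04 for Itgb2), but Itgb2 already had no overlap between the groups. Per kb of all exons this was 0.747 in DMSO and 0.692 in Yoda1, sizes that also depend on the length used. The ratio of Itgae to Itgb7 decreased by 0.20 and that of Itga6 to Itgb1 decreased by 0.31. The ratio of Itga2 to Itgb1 differed by -0.38, but its groups overlapped (exact permutation test, p = 0.114).

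**Figure D3:**
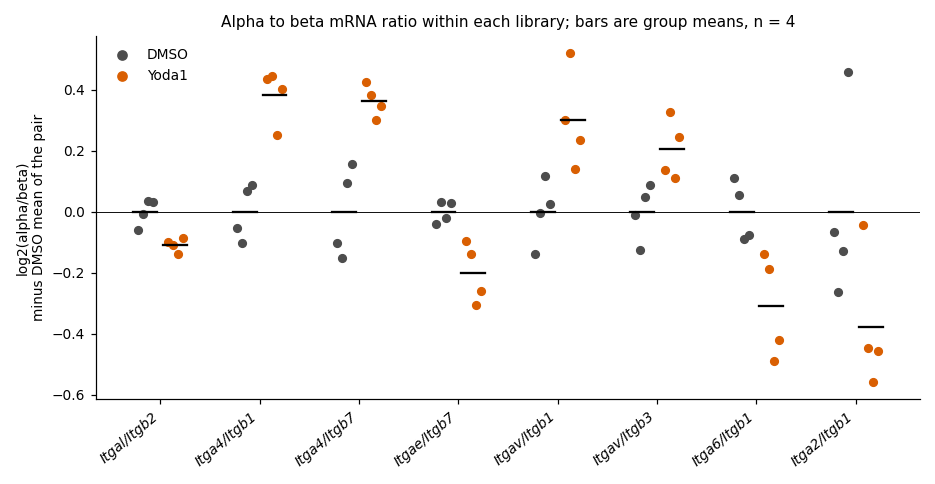
Log2 ratio of alpha to beta CPM in each library for 8 integrin pairs, centred on the DMSO mean of the pair, with DMSO in grey, Yoda1 in orange and bars at the group means (n = 4). The ratios of Itga4 and Itgav to their partners are higher in every Yoda1 library, those of Itgal, Itgae and Itga6 are lower, and that of Itga2 overlaps.

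Beyond the 10 genes, 17 other integrin subunits are listed and 9 of them were tested. With these, 4 of 14 alpha chains and 0 of 5 beta chains were called, beside 10.9% of all genes, and the difference between the chains was not tested. The 1 call among the 9 was Itga3, a laminin receptor chain that pairs with Itgb1. It had 5.26, 6.79, 6.14 and 8.28 CPM in DMSO and 8.88, 9.07, 8.10 and 8.28 CPM in Yoda1. The groups overlapped, and the log2 fold change of 0.38 (SE 0.12) had an edgeR adjusted p of 0.0338. That call was lost in 8 of 16 alternative analyses, among them DESeq2, the replicate block and 6 of the 8 analyses without 1 library, those without DMSO replicates 1, 2 and 3 or Yoda1 replicates 1, 2 and 4. Its adjusted p reached 0.107. The fibronectin receptor chain Itga5 (log2 fold change 0.13), the myeloid chains Itgam (0.20) and Itgax (0.03), and Itgb5 (-0.13), another partner of Itgav, were not called. Itga1 (0.09), Itga10 (0.13), Itga2b (-0.55) and Itga7 (-0.80) had at most 52 counts in any library and were not called either. Itga8, Itga9, Itga11, Itgad, Itgb2l, Itgb4, Itgb6 and Itgb8 were under the filter, with at most 12 counts in a library. Of the partners that Itgav has in epithelium and fibroblasts, Itgb6 had 0 to 4 and Itgb8 had 2 to 12 counts per library.

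**Figure D4:**
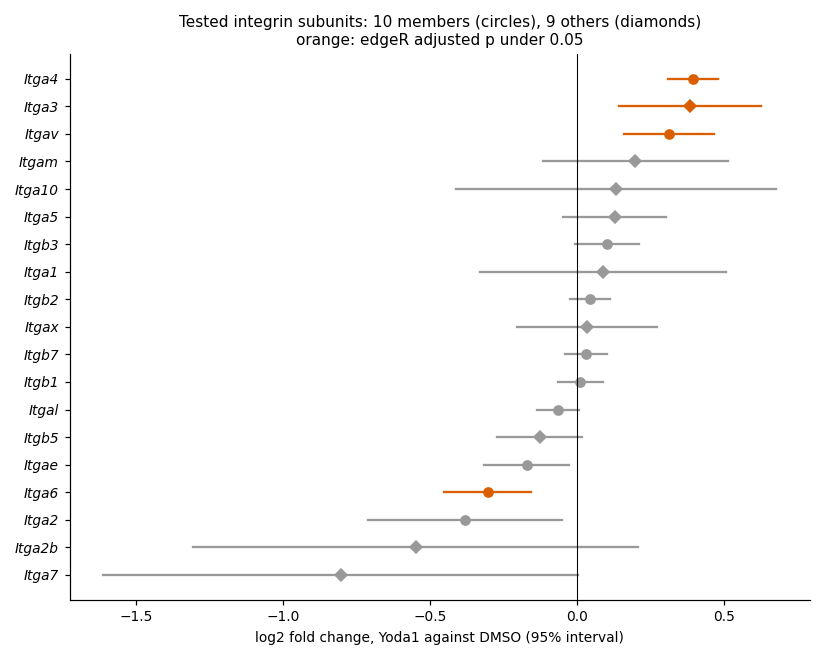
Log2 fold change of Yoda1 against DMSO with its 95% interval for the 19 tested integrin subunits, the 10 described here as circles and the other 9 as diamonds, with called genes in orange. Itga4, Itga3 and Itgav lie above 0 and Itga6 below it, and the intervals of Itgb1, Itgb2 and Itgb7 are narrow and span 0.

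Genes that switch integrins on moved in both directions. The counts of called genes in this and the following groups stand beside 10.9% called over all genes tested, 6.04% higher and 4.84% lower, and no group was tested against that background. Of 21 tested genes of inside-out activation, 2 rose and 2 fell, with a median log2 fold change of -0.05. Rassf5 (RAPL), the Rap1 effector that binds the tail of Itgal, rose by 0.18 on the log2 scale (SE 0.04, edgeR adjusted p = 0.00214), and Rapgef1, which loads Rap1 with GTP, rose by 0.17 (SE 0.04, adjusted p = 0.00373). Fyb (ADAP), an adaptor in the route to LFA-1, fell by 0.13 (adjusted p = 0.0143), and the talin Tln2 fell by 0.49 (SE 0.13, adjusted p = 0.0119). Tln2 was scarce, at 6.98 CPM in DMSO and 4.91 CPM in Yoda1, on 48 to 121 counts per library. The calls of Fyb and Tln2 were lost without Yoda1 replicate 3, with adjusted p of 0.0560 and 0.0572. The main leukocyte talin and kindlin were not called: Tln1 had 842.2 ± 59.0 CPM in DMSO and 788.3 ± 34.8 CPM in Yoda1 (adjusted p = 0.174), and Fermt3 had 461.0 ± 6.80 and 441.7 ± 16.2 CPM (SD, n = 4, adjusted p = 0.283).

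Of 10 genes that restrain integrins or switch Rap1 off, 2 fell, beside 4.84% of all genes called lower, and none rose, with a median of -0.08. Without DMSO replicate 1 the number called was 4. Rap1gap2, a GTPase activator for Rap1, had 3.25, 4.0, 3.26 and 3.33 CPM in DMSO and 1.45, 2.31, 1.05 and 1.54 CPM in Yoda1. The groups did not overlap, and the log2 fold change was -1.10 (SE 0.20, adjusted p = 0.000442) on 14 to 73 counts per library. Rasa3, a GTPase activator that acts on Rap1 and Ras, was 30.8 ± 1.39 CPM in DMSO and 24.0 ± 0.920 CPM in Yoda1 (SD, n = 4), with a log2 fold change of -0.35 (SE 0.06, adjusted p = 0.000222). Both calls held in all 16 alternatives, as did those of Rassf5 and Rapgef1.

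At the cytoplasmic side of bound integrins, 9 of 32 tested kinases, adaptors and actin linkers were called, 4 higher and 5 lower, with a median of -0.02. Vcl (vinculin), which ties talin to actin, rose by 0.30 on the log2 scale, from 27.4 ± 2.44 to 33.8 ± 1.86 CPM (SD, n = 4, adjusted p = 0.00221). Its exons share 2090 bases with Ap3m1 on the other strand, whose reads may be counted with Vcl, and none of the alternatives addresses this. The docking protein Nedd9 rose by 0.20, Git1 by 0.18 and the kinase Fyn by 0.14. Tns2 and Tns3, tensins that bind beta tails, fell by 0.96 and 0.79 on the log2 scale, to 1.43 ± 0.477 and 2.45 ± 0.102 CPM in Yoda1 from 2.83 ± 0.347 and 4.23 ± 0.438 CPM in DMSO (SD, n = 4). The calls of Syk (-0.49), Evl (-0.22) and Parvg, the last of them the smallest change of the 9, were lost in 7, 8 and 9 of the 16 alternatives. Among these were the analyses without DMSO replicates 2, 3 and 4 or Yoda1 replicates 1 and 2 for Syk, without any 1 DMSO library or Yoda1 replicates 1 and 3 for Evl, and without DMSO replicates 2 and 3 or any 1 Yoda1 library for Parvg, with adjusted p up to 0.127, 0.177 and 0.141. The call of Git1 was lost in 1, without Yoda1 replicate 4 (adjusted p = 0.0514). Those of Vcl, Nedd9, Fyn, Tns2 and Tns3 held in all 16.

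Among ligands, 3 of 21 tested genes were called (14.3%, near the 10.9% of all genes) and all 3 rose, with a median of 0.03. With upper-quartile scaling, with library size only and without Yoda1 replicate 3 or 4, 1 ligand was called lower as well. Spp1 encodes osteopontin, which Itgav with Itgb3 and Itga4 with Itgb1 both bind. It had 291.4, 300.05, 313.8 and 351.5 CPM in DMSO and 464.7, 440.15, 493.7 and 485.2 CPM in Yoda1. No library of one group overlapped the other, and the log2 fold change was 0.58 (SE 0.05, edgeR adjusted p = 4.93e-07), larger than that of any of the 10 subunits. A gene on the same strand, Gm42793, shares 309 of the exon bases of Spp1, and counts of the 2 could be split. Lamc1, a laminin chain, rose by 0.22 (SE 0.05, adjusted p = 0.00661). Icam1, the ligand of LFA-1, was 250.1 ± 5.74 CPM in DMSO and 270.8 ± 2.48 CPM in Yoda1 (SD, n = 4, log2 fold change 0.12, adjusted p = 0.0275), but its call was lost in 7 of 16 alternatives, including library size only, upper-quartile scaling and those without DMSO replicates 2 and 4 or Yoda1 replicates 1 and 4 (adjusted p up to 0.114). Vcam1, Madcam1, Fn1 and Cdh1, ligands of Itga4 and Itgae pairs, were not called, at 7.78, 0.652, 1.29 and 3.29 CPM in DMSO. Tgfb1, whose latent form Itgav receptors bind, was at 531.8 ± 7.17 CPM in DMSO (SD, n = 4) and was not called (log2 fold change 0.03, adjusted p = 0.616).

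Of 14 membrane partners of integrins, the LFA-1 associated receptor Cd226 was called higher (log2 fold change 0.17, adjusted p = 0.0362) and the tetraspanin Tspan32 lower (-0.18, adjusted p = 0.0498). Both calls were lost in most alternatives, 10 and 12 of 16. Among these were the analyses without DMSO replicates 1, 2 and 3 or Yoda1 replicates 2, 3 and 4 for Cd226, and without any 1 library other than DMSO replicate 3 for Tspan32 (adjusted p up to 0.139 and 0.123). Cd47, which associates laterally with Itgb3 integrins, had 228.1 ± 11.7 CPM in DMSO and 228.0 ± 12.3 CPM in Yoda1 (SD, n = 4).

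**Figure D5:**
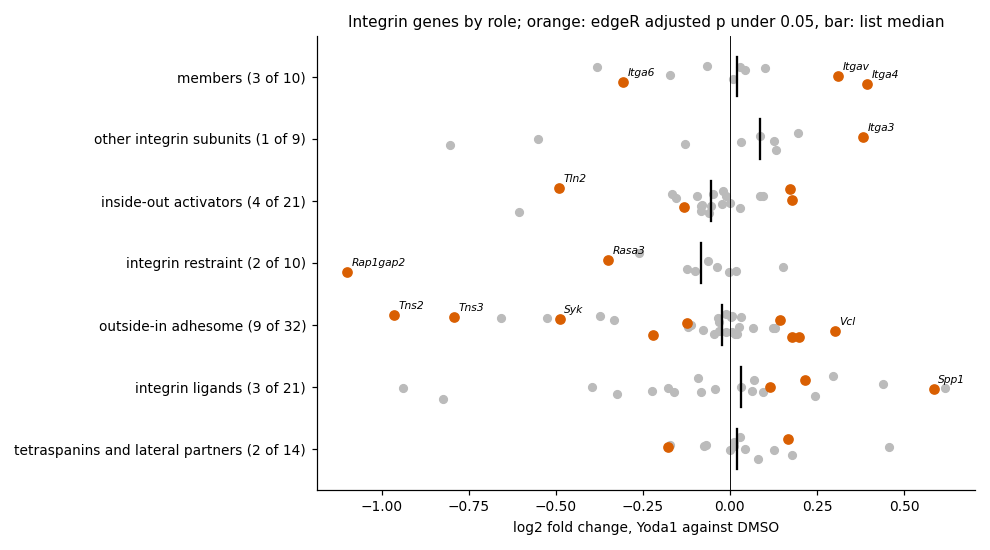
Log2 fold change of Yoda1 against DMSO for every tested gene of 7 groups of integrin genes, with called genes in orange, a bar at the median of each group and the number called of the number tested beside its name. The medians lie between -0.08 for genes of restraint and 0.09 for the other integrin subunits, and calls lie on both sides of 0 in 4 of the groups.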

How the data were processed

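Poly(A)-selected RNA from 8 samples was sequenced, and the authors deposited, as raw counts, the reads assigned to each gene symbol. The paper's methods name BBMap and Cufflinks, the submitters' processing notes name TopHat and mm10, and the counting program and annotation are not given in the sources used here. The kit was directional (NEBNext Ultra II Directional), but whether counting used strand is not given, so overlapping genes on opposite strands may share counts. All counts were of reads, so intervals cover counting error and spread between libraries only.

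From the counts, genes were filtered with filterByExpr (minimum count 10, minimum total count 15), scaled with TMM and compared in R 4.3.3 with edgeR 4.0.16 (robust quasi-likelihood test, Benjamini-Hochberg adjustment over 12239 genes, threshold 0.05). The standard error is the absolute log2 fold change divided by the root of F. The code was tested on simulated data. Exon lengths came from GENCODE M21 (GRCm38), and promoters from RefSeq. Ratios were compared by a two-sided exact permutation test. Named were the 10 subunits, the other tested subunits, of each further list at most the 8 called genes with the largest changes, Piezo1 and Itgb2l. Parvg, Tln1, Fermt3, the uncalled ligands and Cd47 were added once their values had been seen. The subunits and lists were chosen with earlier results of these data known. Alternatives were DESeq2 1.42.0, limma-voom (limma 3.58.1), other scalings, filters and lengths, the replicate block and each library left out.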

Additional observations from a re-analysis of the deposited data

Results flagged for a closer look

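Within groups of 4 libraries, 4 of the 54 groups examined held a library far from the other 3 by Dixon's criterion, which compares the gap to the nearest library with the whole range. Chance flags about 1 in 20, or 2.7 of 54. All 4 lay in the Yoda1 group and in different libraries. Itgav was 244 CPM in Yoda1 replicate 2, with 209 CPM in the next library. Itgb1 was 181 CPM in Yoda1 replicate 3, with 167 CPM in the next. Itgb3 was low in Yoda1 replicate 4, at 114 CPM against 127 CPM in the nearest library. Itga2 was 4.68 CPM in Yoda1 replicate 1, with 3.60 CPM in the next. Of the genes so marked, only Itgav was called, and without Yoda1 replicate 2 its log2 fold change was 0.25 (edgeR adjusted p = 0.000583).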

How the results depend on the processing

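Of 160 alternative log2 fold changes of the 10 subunits, 155 kept their direction and their side of the threshold. The calls of Itga4 (0.36 to 0.43) and Itga6 (-0.35 to -0.26) held in all 16 alternatives. Itgav (0.25 to 0.35) lost its call only without DMSO replicate 2 (0.31, edgeR adjusted p = 0.0503), which left 1 subunit called higher in place of 2. Over the analyses without 1 library, 2 to 3 subunits were called. Values that turned sign were Itgb1 with upper-quartile scaling (-0.0203), library size only (-0.0113) and without Yoda1 replicate 3 (-0.0215, the lowest of -0.0215 to 0.0238 over the analyses without 1 library), and Itgb7 with upper-quartile scaling (-0.00046), all of them uncalled. The cause was not tested. Levels per length moved by more than 1 SD in 17 of 70 alternatives, mostly with another transcript length. With the median coding transcript Itgav went from 16.2 to 252.7 CPM per kb, Itgb7 from 233.1 to 1500 and Itgb2 from 115.2 to 558. The ratio differences stayed within 1 SD without any 1 library. With 3 libraries against 4 the smallest exact p is 0.0571, and with the replicate block it is 0.125, so no ratio can pass the threshold there. Whether the replicate numbers pair the samples is not stated. Same-numbered libraries correlated at -0.03 to 0.07 in their deviations from the group means, and libraries of any number at -0.12 to 0.08. Such correlations cannot settle whether the samples were paired. With the replicate block 3 subunits were called, and 966 of all genes in place of 1331. At these depths Itga2, with 48 to 93 counts per library, had an SE of 0.16, against 0.03 to 0.07 for the other 9.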
